A study of Mus musculus with 12 samples.

Results

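Retinoid binding and retinoic acid metabolism in the fetal liver was described through 9 genes, taken from the deposited table by their symbols. They are the retinol carrier Rbp4, the cellular retinoic acid binding proteins Crabp1 and Crabp2, the retinaldehyde dehydrogenases Aldh1a1, Aldh1a2 and Aldh1a3, the retinoic acid hydroxylases Cyp26a1 and Cyp26b1, and the retinaldehyde reductase Dhrs3. All 9 had a row among the 30743 gene symbols of the table. The samples were whole livers of male C57BL/6J fetuses at 15 ± 0.5 dpc, 6 from dams fed a control diet of 13.5 kcal% fat and 6 from dams fed a high-fat diet (HFD) of 60 kcal% fat, in both groups for 12 to 14 weeks. No transgene or deleted allele was part of the design, and the labels do not say which fetuses shared a dam. The study asked whether maternal HFD or obesity limits the growth of the fetal pool of blood stem and progenitor cells. RNA sequencing of whole livers was among its experiments.

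The values below are the authors' average log2 CPM of each gene over all 12 livers, both diets together, where CPM is the read count of a gene scaled to a common library size. An average over the diets has no SD, and it says nothing of the difference between them. The table otherwise holds the authors' own comparison of the diets, which was not used here, and values of single livers were not analysed here. The levels of the 9 genes are therefore a description of these livers as 1 pool, and no diet difference was tested.

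Vitamin A travels in plasma as retinol bound to RBP4, which hepatocytes secrete, and it is stored as retinyl ester in hepatic stellate cells. Inside cells retinol is oxidised to retinaldehyde, and the ALDH1A enzymes oxidise retinaldehyde irreversibly to retinoic acid, the ligand of the RAR receptors. DHRS3 returns retinaldehyde to retinol, and CYP26 enzymes hydroxylate retinoic acid for clearance. Receptor dimers of RAR and RXR bind pairs of hexamers in DNA, and the gene of the hydroxylase CYP26A1 is itself induced by retinoic acid.

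The bases just upstream of the transcription start are shown for 3 of the genes. Cyp26a1 encodes an enzyme that removes retinoic acid, and Aldh1a1 and Aldh1a2 encode enzymes that make it. All 3 sequences were read from RefSeq promoter sequences on GRCm38.p6 (mm10), 5′ to 3′ on the strand of the gene. Each stops before the exon annotated at that start. The Aldh1a1 sequence belongs to the second of its listed starts and lies inside the annotated gene. Capitals mark hexamers of the receptor type, searched on both strands. The consensus hexamer is AGGTCA, the variants searched beside it were AGTTCA and GGGTCA, and the last of the variants was GGTTCA. Where the match was on the opposite strand, the capitals are its reverse complement.
Cyp26a1 (chr19:37697558-37697797, plus strand): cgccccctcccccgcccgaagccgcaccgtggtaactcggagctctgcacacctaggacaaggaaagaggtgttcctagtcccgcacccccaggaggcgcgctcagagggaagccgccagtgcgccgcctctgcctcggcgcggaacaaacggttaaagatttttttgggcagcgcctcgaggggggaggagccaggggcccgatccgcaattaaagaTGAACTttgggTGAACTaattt
Aldh1a1 (chr19:20601718-20601960, plus strand): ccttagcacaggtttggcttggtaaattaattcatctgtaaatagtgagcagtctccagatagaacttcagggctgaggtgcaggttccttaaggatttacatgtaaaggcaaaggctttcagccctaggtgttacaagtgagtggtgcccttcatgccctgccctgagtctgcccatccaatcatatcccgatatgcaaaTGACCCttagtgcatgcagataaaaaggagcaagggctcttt
Aldh1a2 (chr9:71215539-71215788, plus strand): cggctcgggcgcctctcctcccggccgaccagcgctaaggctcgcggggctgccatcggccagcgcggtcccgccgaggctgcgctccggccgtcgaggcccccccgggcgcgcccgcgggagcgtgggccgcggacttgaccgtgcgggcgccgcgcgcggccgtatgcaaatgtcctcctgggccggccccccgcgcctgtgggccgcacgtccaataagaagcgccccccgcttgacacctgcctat

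In the sequence of Cyp26a1, 2 copies of AGTTCA lay on the opposite strand as a direct repeat with 5 bases between them. They spanned positions -32 to -27 and -21 to -16 from the RefSeq start. A direct repeat of any of the 4 hexamers with this spacing was found in 29 of the 32851 windows of 250 bases before RefSeq starts, or 0.0883%. Aldh1a1 had 1 hexamer, GGGTCA on the opposite strand from -49 to -44 of its second listed start. The window before its first start held none, and neither did that of Aldh1a2. At least 1 hexamer of any of the 4 kinds occurred in 38.6% of all windows.

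Windows were listed for 7 of the 9 genes, 11 in all, since some genes have more than 1 start. Crabp2 and Aldh1a3 had none listed. Hexamers were found before 3 of the 7 genes, Rbp4, Aldh1a1 and Cyp26a1. By window this was 3 of 11, against 38.6% of all windows. A direct repeat spaced by 1, 2 or 5 bases was found in 1 of the 11 windows, that of Cyp26a1, against 0.426% of all windows. The hexamer of Rbp4 was GGGTCA, on the opposite strand from -53 to -48 of 1 of its starts, while its other start had a TATA box (TATAAA) beginning at -28. The window of Cyp26b1, whose enzyme also removes retinoic acid, held no hexamer. Cyp26b1 had a TATA box beginning at -139 of its RefSeq start, in a window whose last 98 bases lie in an annotated exon of the gene. Of all windows, 7.59% held a TATA box on the strand of the gene. GC content ranged from 40.8% to 77.6% over the 11 windows, and was highest before Aldh1a2, against a median of 52.4% over all windows. A match of letters is not a bound site, and windows of 250 bases leave out distant elements.

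**Figure D1:**
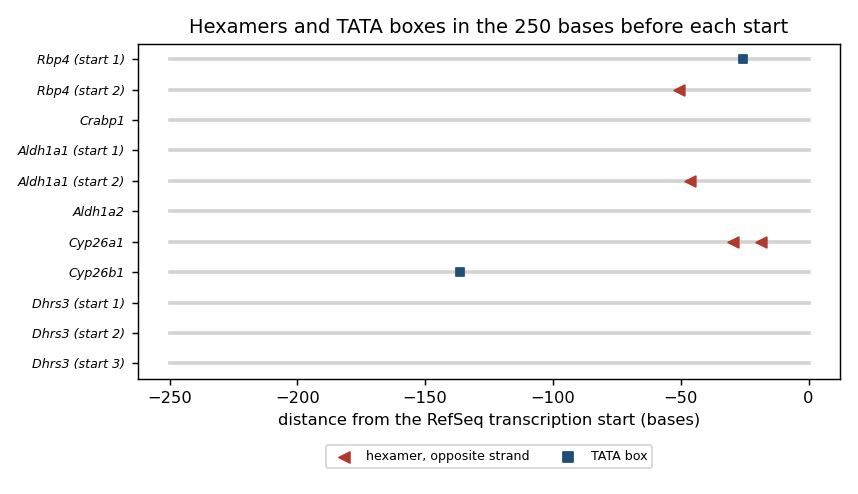
Positions of receptor-type hexamers and TATA boxes in the 250 bases before each of the 11 RefSeq starts of 7 retinoid genes. The horizontal axis is the distance from the start in bases, each grey line is 1 window, triangles are hexamers on the opposite strand and squares are TATA boxes. Cyp26a1 is the gene with 2 hexamers in 1 window, both within 32 bases of the start.

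Rows without reads share the lowest average of the table, -2.71 log2 CPM or 0.152 CPM, because the authors' edgeR average includes a prior count, taken here as the default of 2 reads in every library. This lowest value is referred to as the floor. It was shared by 11091 rows, and all 9 retinoid genes lay above it. Of the 18735 rows matched to a protein-coding transcript length, 77.6% lay above the floor. Rows just above the floor rose in steps of 1 read over the 12 livers: of the 4038 rows with 1 to 9 reads, 99.8% were within 0.1 of a whole number of reads. With this prior each average can be read back as an approximate number of reads over the 12 livers. Intervals given for reads are exact 95% Poisson intervals, which cover counting error and not the spread between livers.

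Of the 9 genes, 4 were above 1 CPM (Rbp4, Aldh1a1, Aldh1a2 and Aldh1a3), against 45.1% of the 18735 rows that could be matched to a protein-coding transcript length. Levels of different genes are compared per kilobase (kb) of the longest protein-coding transcript in GENCODE M21. On that scale the median of the 9 genes was 0.658 CPM per kb, and that of the 14531 matched rows above the floor was 0.682 CPM per kb. The genes ran from Rbp4, at 8.60 CPM per kb, to Cyp26b1, at 0.0409 CPM per kb, a value that includes the floor.

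Rbp4, which carries retinol in plasma, was the highest of the 9. It lies on chromosome 19 of GRCm38 from 38116629 to 38125281. Its average was 3.32 log2 CPM, or 9.99 CPM, which stands for about 1550 reads (1474 to 1629) or 129 per liver. Per kb it lay at percentile 75.6 of the matched rows above the floor. Ttr, the plasma partner that binds RBP4, was at 2590 CPM and 2184 CPM per kb. Ttr has 1 annotated consensus coding transcript and Rbp4 has 2, and median levels in the table fell with that number, as described below. The part of this in the gap between Rbp4 and Ttr was not tested.

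Of the retinaldehyde dehydrogenases, which make retinoic acid, Aldh1a2 and Aldh1a1 came next per kb and Aldh1a3 was the sixth of the 9 genes. Aldh1a2, the main enzyme of the early embryo (chromosome 9, 71215789 to 71296243), averaged 2.52 log2 CPM, or 5.72 CPM and 878 reads (821 to 938). Aldh1a1 (chromosome 19, 20492715 to 20643465) averaged 2.21 log2 CPM, or 4.64 CPM and 707 reads (656 to 761). Aldh1a3 (chromosome 7, 66390890 to 66427517) averaged 0.79 log2 CPM, or 1.73 CPM and 249 reads (219 to 282). Per kb above the floor, Aldh1a2 was 1.29 times Aldh1a1, and their counting intervals did not overlap. The order was reversed when each was ranked among genes with as many annotated consensus coding transcripts. There Aldh1a1 lay at percentile 74.4 and Aldh1a2 at percentile 54.3. Aldh1a3 was lower than both, at 0.458 CPM per kb above the floor against 1.90 for Aldh1a1.

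Aldh1a1 has a close copy beside it. This neighbour, Aldh1a7, 49488 bases away on the opposite strand, is identical at 91.6% of 1503 coding bases, and 151 of the 2309 distinct 50-base words of the Aldh1a1 transcript (6.54%) also occur in Aldh1a7. Aldh1a7 stood at 2.69 log2 CPM, or 6.45 CPM. How the counting treated reads that fit both genes is not given in the sources used here, so the share of the Aldh1a1 level that comes from these common stretches is uncertain, while most of its words were its own. None of the other 8 genes shared a 50-base word with a transcript of another gene. Between the 3 enzymes themselves coding identity was 68.2% to 69.8%, and between Crabp1 and Crabp2 it was 70.8%.

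The binding proteins that hold retinoic acid in the cytosol were below 1 CPM. Crabp1 (chromosome 9, 54764748 to 54773110) averaged -0.28 log2 CPM, or 0.822 CPM and 106 reads (86.8 to 128). Crabp2 (chromosome 3, 87948666 to 87953376), which delivers retinoic acid to RAR, averaged -0.71 log2 CPM, or 0.613 CPM and 73 reads (57.2 to 91.8). These are 8.79 and 6.04 reads per liver, so a single liver gives little information on either gene. Their transcripts are short, and per kb above the floor Crabp1 (0.835) and Crabp2 (0.494) stood above Aldh1a3 in order.

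Genes that lower retinoic acid were the lowest of the 9 per kb, although among genes with as many CCDS transcripts (coding transcripts of a consensus set) Dhrs3 lay at percentile 39.3 and Aldh1a3 at 38.3. Cyp26a1 (chromosome 19, 37697798 to 37701536) averaged -1.11 log2 CPM, or 0.462 CPM and 49 reads (36.3 to 64.8). Dhrs3 (chromosome 4, 144892827 to 144928209) averaged -1.24 log2 CPM, or 0.424 CPM and 43 reads (31.1 to 57.9). Cyp26b1 (chromosome 6, 84571414 to 84593908) averaged -2.44 log2 CPM, which stands for 5 reads (1.62 to 11.7) in the 12 livers together. That is 0.416 reads per liver, so the level of Cyp26b1 rests on almost no reads. Cyp26c1, the third hydroxylase of the family and the nearest coding neighbour of Cyp26a1, was at -2.49 log2 CPM, or 4 reads.

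In order of level per kb above the floor the genes were Rbp4, Aldh1a2, Aldh1a1, Crabp1, Crabp2, Aldh1a3, Cyp26a1, Dhrs3 and Cyp26b1. Of the 8 neighbouring pairs in this order, 6 had counting intervals that did not overlap. Crabp2 (0.390 to 0.626 CPM per kb) and Aldh1a3 (0.404 to 0.520) overlapped, and so did Cyp26a1 (0.128 to 0.230) and Dhrs3 (0.0845 to 0.157). The widest step between neighbours was the last, from Dhrs3 to Cyp26b1, which was 16.5-fold. Cyp26b1 rests on about 5 reads (0.00229 to 0.0165 CPM per kb), so the size of that step is uncertain. Whether neighbours differ beyond the spread between livers was not tested.

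**Figure D2:**
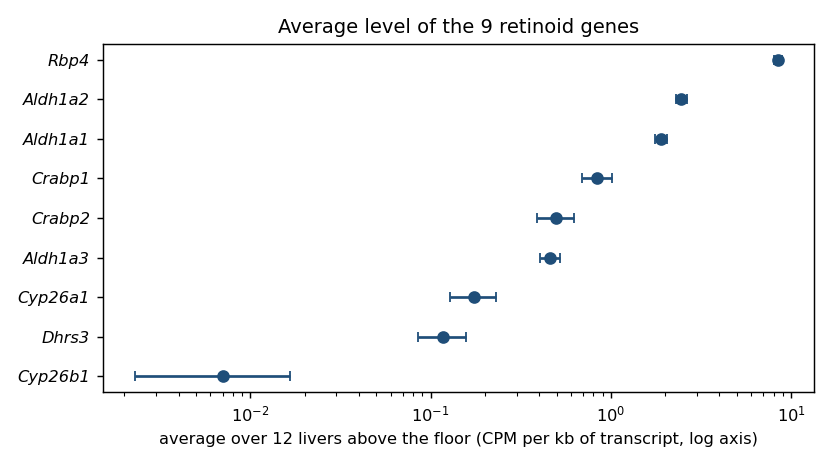
Level of each of the 9 retinoid genes, as the authors' average over 12 livers with the floor subtracted, in CPM per kb of the longest coding transcript on a log axis. Bars are exact 95% Poisson intervals of the approximate reads and cover counting error only. Rbp4 is highest at 8.47 CPM per kb and Cyp26b1 lowest at 0.00705.

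Several rows of the table were far below the level that their gene is known to have, and this bears on how the values above can be read. Hnf4a, a transcription factor that defines hepatocytes, was listed at the floor, and so were the endothelial gene Pecam1, the mesenchymal gene Pdgfrb and the macrophage gene Adgre1. Alb and Afp, the 2 highest of the hepatocyte genes listed, were at 63314 and 54525 CPM. Of 78 rows of ribosomal proteins, which every cell needs, 4 were at the floor (Rps21, Rps25, Rps27a and Rps28) and 10 were below 1 CPM. The ribosomal rows were looked up after the values had been seen. Low values were not limited to the floor. The glycolytic gene Gapdh stood at 5.20 CPM, or 3.66 CPM per kb. Hprt was at 298 and Actb at 2581 CPM, and the median ribosomal row was at 17.1 CPM. These genes too were looked up after the values had been seen. A gene listed at or near the floor is therefore not shown to be silent in these livers. Per kb, Gapdh lay below Rbp4 (8.60) and above Aldh1a2 (2.53), Aldh1a1 (1.97) and Aldh1a3 (0.503).

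Levels in the table moved with the number of transcripts annotated for a gene. Among 11345 protein-coding genes with 1 transcript in the consensus coding set (CCDS), the median was 0.54 log2 CPM and 17.8% were at the floor. Among 4340 genes with 2 such transcripts the median was -1.57 and 28.7% were at the floor, and among 2766 genes with 3 or more these values were -1.91 and 30.5%. Rbp4, Aldh1a1 and Dhrs3 have 2 CCDS transcripts, Cyp26b1 has 3 and the other 5 genes have 1. The part of this in the levels of the 9 genes was not tested.

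Shared exons also differed between the genes. In Rbp4, 85.5% of the exonic bases lie in more than 1 of its 4 annotated transcripts, and in Cyp26b1 and Dhrs3 the shares were 75.7% and 66.9%. Crabp1 and Aldh1a2 have 1 annotated transcript each. Compared with matched genes above the floor that have as many CCDS transcripts, Rbp4 lay at percentile 87.7, against 75.6 among all, and Aldh1a2 at percentile 54.3, against 63.7. Aldh1a1 lay at percentile 74.4 on this scale, and Cyp26b1 at 9.16.

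**Figure D3:**
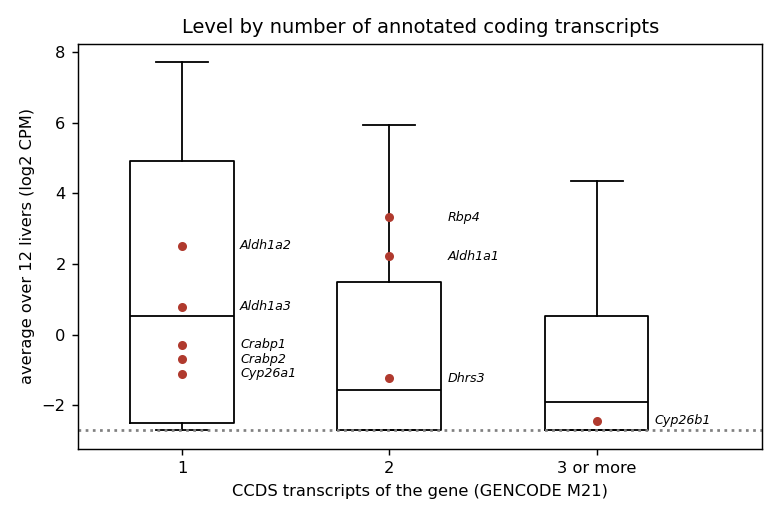
Authors' average level (log2 CPM) of all protein-coding genes matched by symbol, by their number of CCDS transcripts. Boxes are quartiles with the median, whiskers the 5th and 95th percentiles, the dotted line is the floor and red points are the 9 retinoid genes. The median falls from 0.54 with 1 transcript to -1.91 with 3 or more, and Cyp26b1 is the only one of the 9 in the last class.

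The rest of the retinoid pathway was described from a list of 61 genes in 9 groups. Of these, 59 lay above the floor and 35 above 1 CPM, with a median of 0.528 CPM per kb. Of all matched rows, 77.6% lay above the floor and 45.1% above 1 CPM. Values per kb of the pathway and marker genes include the floor unless stated, and for genes with few reads the floor makes up most of the value. Rxrb, a partner of RAR, and Stra8, a target in germ cells, were the 2 listed at the floor.

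Among plasma carriers and uptake genes, Ttr (2184 CPM per kb), the lipoprotein receptor Lrp1 (21.8) and the scavenger receptor Scarb1 (5.26) were highest. Stra6, the RBP4 receptor of many tissues, had 3 reads over the 12 livers, and Stra6l, the receptor known from liver, had 17. Among cellular retinoid binding proteins, Fabp5, a fatty acid binding protein that also carries retinoic acid, was at 636 CPM per kb and Rbp2 at 12.2.

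Of the genes for storage and release, Ces1d (36.7 CPM per kb), Lpl (23.5) and Pnpla3 (9.31) were highest. Lrat, which esterifies retinol for storage and marks stellate cells, was at 2.95 CPM per kb, or 15.8 CPM. All 18 genes of the retinol and retinal dehydrogenase group lay above the floor and 12 above 1 CPM. The highest were Adh5 (139.5 CPM per kb), Aldh8a1 (46.0) and Adh1 (25.5). Aldh8a1 was at 104 CPM, above each of the 3 Aldh1a genes. Rdh10, which supplies retinaldehyde in the embryo, was at 5.85 CPM per kb.

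Both other retinoic acid hydroxylases listed were below 1 CPM. Cyp26c1 had 4 reads and Cyp2s1 19, and above the floor they were at 0.0144 and 0.0381 CPM per kb, an order that turns (0.102 and 0.0863) when the floor is included. No hydroxylase of the list or of the 9 genes passed 1 CPM. For carotenoid cleavage, Bco2 was at 1.31 and Bco1 at 0.109 CPM per kb. Among receptors, Rxra (41.7 CPM per kb) and Ppard (13.1) were highest, and the retinoic acid receptors followed with Rara at 0.588, Rarg at 0.528 and Rarb at 0.236. Rara has 5 CCDS transcripts and Rxra has 4. In the group of corepressors and coactivators Ncor1 (1.00), Nrip1 (0.154) and Ncoa1 (0.119) were highest. Among known targets of retinoic acid, Tgm2 (29.9 CPM per kb), Rarres2 (24.9) and Hoxa5 (2.05) were highest, and 4 of the 10 passed 1 CPM. Hoxb1 had 6 reads over the 12 livers.

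**Figure D4:**
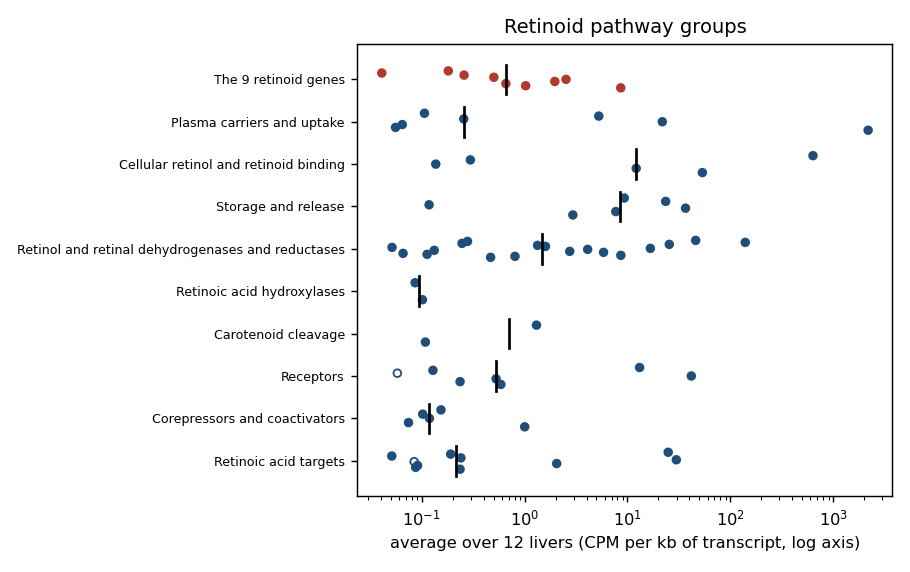
Authors' average level over 12 livers, in CPM per kb of transcript on a log axis, for the 9 retinoid genes (red) and the other pathway genes by group (blue). Each point is a gene, open points are genes at the floor, and black bars are group medians. The 9 genes span 0.0409 to 8.60 CPM per kb, and the highest points are Ttr at 2184 and Fabp5 at 636.

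In a whole liver the level of a gene depends on how many cells of its type are present and on how much RNA each holds, and these cannot be told apart. Mesothelium is a cell layer known to express Aldh1a2, and 6 of 6 of its markers lay above the floor and 4 above 1 CPM. The shares of all matched rows were 77.6% and 45.1%. The markers ran from Upk3b (6.02 CPM per kb) through Krt19 (3.86), Upk1b (2.58) and Wt1 (0.368) to Gpm6a (0.129) and Msln (0.0791). Gpm6a had 42 reads and Msln 3 over all livers, and above the floor they were at 0.0821 and 0.00875 CPM per kb. Reads of these markers do not show how much mesothelium the livers held. Of 8 stellate and mesenchymal markers 7 were above 1 CPM, with Colec11 (25.5 CPM per kb), Des (7.89), Ngfr (6.59) and Reln (5.33) highest, Lhx2 (1.02) and Hgf (0.342) lowest and Pdgfrb at the floor. Which cells of the liver held each of the 9 transcripts was not measured.

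On the chromosomes, Rbp4 and Cyp26a1 lie 415 kb apart on chromosome 19. Neither overlaps another annotated gene. Aldh1a1 overlaps the antisense transcript C730002L08Rik and the pseudogene Gm6684, and Aldh1a2 overlaps the pseudogene Gm48124, each on the opposite strand. These overlaps are of whole gene spans, introns included. The library kit does not mark strand, so strand could not separate reads where exons overlap. However, in the search of 50-base words, the longest transcript of Aldh1a1 shared words with Aldh1a7 only. That of Aldh1a2 shared none with another gene. Reads common to the 2 enzymes and these overlapping genes were therefore not shown.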

How the data were processed

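RNA of 6 control and 6 HFD whole fetal livers was sequenced after polyA selection. Reads were mapped by the authors to mm10 (Subread 1.3.6-p1), who then compared the diets in edgeR. The submitters' processing notes also name cutadapt 1.2.1. The counting tool, edgeR version and normalization are not given in the sources used here. The deposited average log2 CPM over all 12 libraries was the only column used. The remaining columns hold the authors' fold changes, p-values and adjusted p-values with a common and a tagwise dispersion, and a second average, and were not used, so the planned test between diets was not run.

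The members, lists and searches were chosen with earlier results of these data known. All 9 members were named, and of each pathway group the 3 highest genes per kb, those at the floor and genes with a known role beside the members. Some listed genes are not reported here. Reads were read back as 2 × 12 × (2^(average − floor) − 1), which was tested on simulated data. The simulated averages held the same prior, so that test does not show which prior the deposited averages used. Lengths, positions and CCDS transcripts came from GENCODE M21 (GRCm38), matched by symbol to 18735 rows, and older symbols through RefSeq synonyms. Since that reference gave no RefSeq transcript lengths, GENCODE lengths were used. Hexamers were searched in the 250 bases before RefSeq starts, and 50-base words in all GENCODE transcripts. Coding sequences were aligned globally with Biopython 1.88. Scripts ran in Python 3.11.15 with scipy 1.17.1 for intervals, pandas 2.3.3 and numpy 2.4.6 for tables, and matplotlib 3.10.9 for plots.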

Additional observations from a re-analysis of the deposited data

How the results depend on the processing

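All 9 retinoid genes and 59 of 61 pathway genes lay above the floor, but 4 and 35 of them lay above 1 CPM. Among all matched rows, 77.6% lay above the floor and 45.1% above 1 CPM. The order of the 9 genes per kb kept 34 of its 36 pairs without division by length, 35 per kb of coding sequence and all 36 with the floor subtracted. Subtracting the floor moved 5 of the 9 levels by more than their counting error, from 0.184 to 0.0317 CPM for Cyp26b1. Percentiles shifted under both other rankings. With rows at the floor included, Dhrs3 went from 31.0 to 44.4, Cyp26a1 from 36.9 to 50.2 and Cyp26b1 from 4.64 to 9.18. Among genes with as many CCDS transcripts, a ranking added after seeing the data, Aldh1a1 went from 61.4 to 74.4, Rbp4 from 75.6 to 87.7 and Cyp26b1 to 9.16. Aldh1a2 went to 54.3 on it, so its order with Aldh1a1 was reversed. By ratio, only Cyp26b1 changed by over 1.5 times. Hexamers were found before 3 genes, in 3 of 11 windows against 38.6% of all windows. Spaced repeats were found before 1 gene, against 0.426% of all windows.

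The 5 genes below 1 CPM, Crabp1, Crabp2, Cyp26a1, Dhrs3 and Cyp26b1, had 5 to 106 reads over 12 livers, which limits the precision of their levels. No paired analysis was possible because the deposited averages hold no value for a single liver. For the same reason other normalizations, other filters, DESeq2 and leaving out livers were not run. The second average column was also not run.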

Other observations

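Other cell types of the fetal liver were described through marker lists. Of all matched rows, 77.6% lay above the floor and 45.1% above 1 CPM. Of 6 hepatocyte markers 5 lay above the floor, with Alb (31128 CPM per kb), Afp (26430), Apoa1 (4924) and Ttr (2184) far above Serpina1a (0.116) and with Hnf4a at the floor. All 6 erythroid markers lay above it, and those described were Slc4a1 (2648 CPM per kb), Klf1 (452), Epb42 (8.68), Hemgn (7.22) and Alas2 (0.346). The heme synthesis gene Alas2 was thus the lowest of these 5 in the same table.

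Of 5 myeloid markers, Mpo (276 CPM per kb) and Elane (114) were above 1 CPM, Csf1r (84 reads, 0.113 CPM per kb above the floor) and Cd68 (9 reads, 0.0461) below it, and Adgre1 at the floor. Of 5 endothelial markers, Lyve1 (52.1), Cdh5 (36.0), Kdr (12.0) and Stab2 (0.272) lay above the floor and Pecam1 at it. All 6 genes of gut and pancreas had reads, with Fabp2 (16.0 CPM per kb), Ctrb1 (14.2), Cpa1 (5.08) and Vil1 (1.29) above Cel (0.871) and Cdx2 (0.314). Lrat and Ttr each stand in both a pathway group and a marker list.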
